A study of Mus musculus with 2 samples.

Results

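CD4+ conventional T (Tconv) cells with transcripts of Pdcd1, the gene of the inhibitory receptor PD-1, were examined among T cells sorted from mouse melanoma. The cells were chosen by their own unique molecular identifiers (UMIs, each standing for 1 captured RNA molecule). A Pdcd1+ Tconv cell had at least 1 UMI of Cd4, at least 1 of Pdcd1, and none of Foxp3, Cd8a, Cd8b1, Ifng or Zbtb16. Of 14035 barcodes in the gene expression library, 9078 had 200 to 2500 detected genes and under 5% mitochondrial UMIs. Of these, 1769 were Tconv cells (Cd4 with no Foxp3, Cd8a or Cd8b1), 282 of them had Pdcd1, and 236 remained after 45 cells with Ifng and 1 with Zbtb16 were set aside. The 236 cells were 13.3% of Tconv cells (95% interval 11.8 to 15.0) and 2.60% of all cells kept.

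The T cells came from tumors that B16 melanoma cells, or B16 cells engineered to overexpress secreted IL-33 (B16–IL-33, labelled B16IL33), had formed in C57BL/6J mice by the ninth day. Cells were marked with hashtag antibodies by tumor, and T cells were then sorted on TCR-β and pooled. The pool was sequenced as a gene expression, a hashtag and a TCR library. The pool is 1 sample, so no test between animals could be made and the intervals below cover counting error alone. No group received a further treatment, and in the B16–IL-33 group the added IL-33 was made by the tumor cells.

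PD-1 is induced on CD4+ T cells when their receptor meets antigen, and it dampens receptor and CD28 signaling when bound by PD-L1 or PD-L2. CD4+ cells that keep PD-1 include recently activated cells, cells under lasting stimulation, which add receptors such as TIGIT, LAG-3 and TIM-3, and follicular helper cells, which also carry CXCR5 and BCL6. Regulatory T (Treg) cells in tumors express PD-1 as well, so a Treg cell whose Foxp3 transcript was missed would meet the same rule. Such cells cannot be told apart from true Tconv cells by the rule alone.

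Most Pdcd1+ Tconv cells were called by a single molecule. There were 164 cells with 1 Pdcd1 UMI, 46 with 2, 17 with 3 and up to 12 in 1 cell, and just outside the rule lay 1487 Tconv cells with 0. Pdcd1 lies on chromosome 1 at 94038305 to 94052553 on the reverse strand (GRCm38). Over all Tconv cells it reached 89.4 CPM, the scaled share of all UMIs of those cells, against 76.8 in Foxp3+ CD4+ cells and 143 in CD8+ cells. In 233 barcodes without T cell marker UMIs but with B cell, myeloid or melanocyte markers, 1 cell held a Pdcd1 UMI (0.429%, 1.20 CPM). The median was 2861 UMIs per cell there against 2498 in Tconv cells. The same barcodes held Foxp3 in 12 (5.15%) and Ifng in 9 (3.86%). Barcodes with T cell marker UMIs were left out beforehand, so a low Pdcd1 share was partly set by that choice. At a common depth of 1500 UMIs per cell the share with Pdcd1 was 9.47% of Tconv cells and 0 of 167 of those barcodes. Their T cell identity was checked by defining markers: a UMI of Cd3d, Cd3e, Cd3g, Trac or Trbc2 was found in 234 of 236. Among markers of other cells, 3 cells (1.27%) held a B cell marker with Cd79a and Ms4a1 at 0, 26 (11.02%) held a myeloid marker with Itgam at 0, and 9 (3.81%) held a melanocyte marker with Pmel at 0.

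Because cells with more UMIs are more likely to show a Pdcd1 UMI, the 236 cells were compared with 548 Pdcd1− Tconv cells drawn to the same spread of UMIs per cell, with medians of 2709.5 and 2711. Values are CPM of the summed UMIs and their ratio, with a 95% interval from the counts. Among 5163 genes with at least 50 UMIs over both groups, 280 (5.42%) were at least 1.5-fold higher in the Pdcd1+ cells and 255 (4.94%) at least 1.5-fold lower, and the median gene had a log2 ratio of 0.05. For 191 of the former and 141 of the latter the interval left out 1, a count chosen after seeing the data. The matched cells differed from the Pdcd1+ cells in the rule too, since 81 of them (14.8%) held an Ifng UMI and 11 (2.01%) a Zbtb16 UMI.

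**Figure D1:**
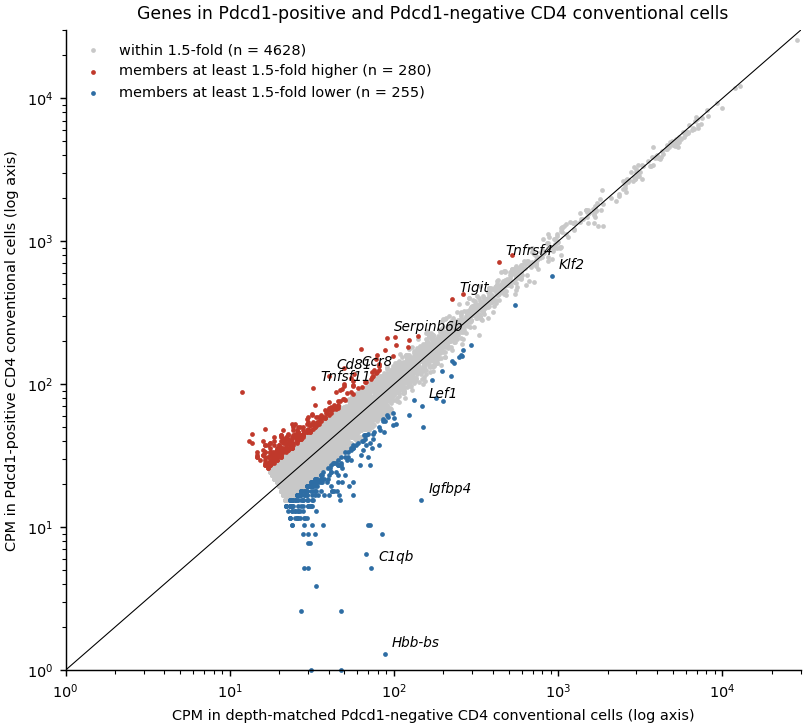
Each point is 1 of 5163 genes, with its CPM in 548 depth-matched Pdcd1− Tconv cells on the x axis and in 236 Pdcd1+ Tconv cells (called members in the plots) on the y axis, both on log axes; genes at 0 or under 1 CPM are drawn on the edge. Red and blue points are the 280 and 255 genes past 1.5-fold, and Tigit, Tnfrsf4 and Tnfsf11 lie above the diagonal while Igfbp4, Lef1 and Klf2 lie below it.

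The highest ratios among genes with at least 100 UMIs included surface and signaling genes. Tnfsf11 (chromosome 14, 78277445 to 78308043, reverse strand), which encodes the TNF family ligand RANKL, stood at 94.1 CPM in Pdcd1+ and 32.3 in Pdcd1− cells, a 2.91-fold ratio (2.03 to 4.19). Its 73 UMIs came from 41 of 236 cells, against 57 UMIs in 45 of 548. Cd81, a tetraspanin (chromosome 7, 143052739 to 143067934), was 2.82-fold higher (2.04 to 3.90), at 113 against 40.3 CPM. Serpinb6b, a serine protease inhibitor, was 2.31-fold higher (1.85 to 2.90), and its UMIs were spread over 62 cells. The UMIs of these 3 genes lay in 38 to 62 of the Pdcd1+ cells, so no single cell carried the ratio.

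Further genes among the 10 highest were Ramp3, a partner of calcitonin family receptors, at 2.11-fold (1.70 to 2.62), and Ccr8, a chemokine receptor well known on tumor Treg cells, at 2.07-fold (1.54 to 2.77). Marcksl1 and Kdm2b followed at 2.04 and 2.03, and Tbc1d4, which regulates glucose transporter traffic, at 1.98. Penk, the precursor of enkephalins, and Gzmc, a granzyme, rested on few cells. Penk had 101 UMIs in 10 Pdcd1+ cells, 50 of them in 1 cell, and Gzmc had 36 of its 56 UMIs in 1 of 9 cells. Both turned lower, with log2 ratios of −2.05 and −1.45, once cells with a marker of other cell types were left out.

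The lowest ratios were of another kind. Igfbp4, an IGF-binding protein expressed by naive T cells (chromosome 11, 99041244 to 99054392), stood at 146 CPM in Pdcd1− cells and 15.5 in Pdcd1+ cells, a ratio of 0.106 (0.0539 to 0.188), with a UMI in 5 of 236 and 81 of 548 cells. Tnrc6c, a factor of microRNA silencing, had a ratio of 0.362 (0.195 to 0.629). The other 8 were genes of red or myeloid cells, namely Hbb-bs, C1qb, Ccl7, Ccl2, Cxcl2, Ccl6 and Tyrobp, and the type 2 cytokine gene Il13. Of 155 Hbb-bs UMIs in Pdcd1− cells, 151 were in 1 cell, and of 123 Il13 UMIs, 91 were in 1 cell. The 12 myeloid genes listed summed to 485 CPM in Pdcd1+ cells and 1000 CPM in Pdcd1− cells, and 7 of the 8 with enough UMIs were past 1.5-fold lower. Without cells that held a marker of other cell types, C1qb and Ccl2 turned higher, with log2 ratios of 0.83 and 0.41 on few UMIs. In the same cells the log2 ratio of the summed inhibitory receptors was 0.40 (0.29 to 0.51), that of the naive genes −0.40 (−0.49 to −0.31) and that of the Treg genes 0.32 (0.26 to 0.39).

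Among inhibitory receptors other than PD-1, 4 of 10 with enough UMIs were past 1.5-fold higher and 2 lower, with a median log2 ratio of 0.25. Tigit, a receptor for CD155, stood at 394 CPM in Pdcd1+ and 225 in Pdcd1− cells (1.75-fold, 1.503 to 2.04). Lag3, a receptor for MHC class II, stood at 159 and 98.2 CPM (1.61-fold, 1.27 to 2.05), but with at least 2 Pdcd1 UMIs required its log2 ratio was −0.23. Cd200, whose product engages an inhibitory receptor on myeloid cells, had the highest ratio of the list at 3.31 (1.92 to 5.82), with 35 UMIs in 21 cells against 24 UMIs in 20. Havcr2, which encodes TIM-3, was 2.27-fold higher (1.31 to 3.94) on 29 UMIs in each group. Ctla4 was the most abundant of the list in both groups, at 461 and 386 CPM (1.19-fold, 1.05 to 1.36). Cd96 and Entpd1, which encodes CD39, stood at 0.589 (0.346 to 0.961) and 0.642 (0.318 to 1.21). The interval lay above 1 for 5 of these 10 genes and below 1 for 1, Cd96. Over all 5163 genes it did so for 400 and 270. With at least 2 Pdcd1 UMIs required, Cd96 turned higher, at a log2 ratio of 0.72.

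Regulators tied to exhaustion differed little. Tox, a factor that programs exhausted CD8+ cells, stood at 54.1 and 42.6 CPM (1.27-fold, 0.850 to 1.88). Nr4a3, a factor induced by receptor signaling, was 1.66-fold higher (0.971 to 2.80), and Irf4, which supports effector growth after receptor signaling, was at 0.586 (0.358 to 0.926). These were the only 2 of 16 past 1.5-fold, and the list had a median log2 ratio of 0.22. Rbpj, the DNA-binding partner of Notch, was at 1.47 (1.05 to 2.06). Of the receptor activation genes, 1 of 16 was higher, Cd83 at 2.84 (1.60 to 5.07), and 1 lower, Irf4, while Junb was at 0.735 (0.683 to 0.789) and Cd69 at 0.996 (0.872 to 1.14).

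Of 19 follicular helper genes, 10 had enough UMIs. Their interval lay above 1 for 3 and below 1 for 0, against 400 and 270 of all 5163 genes. The summed list had a log2 ratio of 0.26 (0.16 to 0.36). The genes that define these cells were sparse, as Cxcr5 had 8 UMIs in 6 of 236 Pdcd1+ cells, Bcl6 had 2 in 1 cell and Il21 had 12 in 9 cells, all under the 50 UMIs required. Tnfsf8, which encodes CD30 ligand, was the 1 of the 10 past 1.5-fold, at 1.88 (1.39 to 2.55). Sh2d1a, the SAP adaptor that follicular helper cells need, was at 1.38 (1.14 to 1.67), and Icos at 1.11 (0.968 to 1.27). Cd40lg, the helper ligand for B cells and dendritic cells, was at 1.10 (0.882 to 1.38).

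Naive and quiescence genes were lower. Of 18, none was past 1.5-fold higher and 5 were lower, with a median log2 ratio of −0.31. Besides Igfbp4 these were Ly6c1 at 0.115 (0.0232 to 0.354), Lef1, a partner of TCF-1 in resting T cells, at 0.480 (0.352 to 0.645), Satb1, a chromatin organizer, at 0.606 (0.493 to 0.741), and Klf2, which maintains exit into blood and lymph, at 0.624 (0.561 to 0.694). Klf2 was abundant in both groups, at 571 CPM in Pdcd1+ and 915 in Pdcd1− cells. Tcf7, which encodes TCF-1, was at 0.785 (0.652 to 0.941) and Ccr7 at 0.680 (0.504 to 0.908). Il7r and S1pr1 had ratios of 1.12 (0.955 to 1.30) and 1.11 (0.839 to 1.45). The interval lay below 1 for 9 of the 18 genes and above 1 for 0, against 270 and 400 of all 5163 genes.

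Genes known from Treg cells other than Foxp3 were higher in 3 of 16 and lower in none, with a median log2 ratio of 0.42. Tnfrsf4, which encodes the costimulatory receptor OX40, stood at 713 CPM in Pdcd1+ and 435 in Pdcd1− cells (1.64-fold, 1.47 to 1.83). Ccr8 and Ebi3, an IL-35 subunit, were the others. Over the alternatives in processing, the log2 ratio of Tnfrsf4 ran from 0.078 to 1.03 and that of Ebi3 from 0.0099 to 1.87. Tnfrsf9, which encodes 4-1BB, was at 1.46 (1.28 to 1.67), Il2rb at 1.42 (1.23 to 1.64), Tnfrsf18, which encodes GITR, at 1.36 (1.21 to 1.53) and Ikzf2, which encodes Helios, at 1.32 (1.13 to 1.55). Il2ra, which encodes CD25, was at 1.17 (0.893 to 1.52).

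Set against Foxp3+ CD4+ cells of the same pool, these Treg genes were low in Pdcd1+ Tconv cells. Il2ra was at 113 CPM against 439, a ratio of 0.258 (0.206 to 0.320). Ikzf2 was at 0.372, Ctla4 at 0.391, Tnfrsf4 at 0.477 and Areg, which encodes the growth factor amphiregulin, at 0.205. Il2rb reached 0.801 (0.710 to 0.901). Nrp1, which encodes neuropilin 1, was above the Foxp3+ level at 1.70 (1.18 to 2.41). A UMI of Il2ra or Ikzf2 was present in 118 of 236 Pdcd1+ Tconv cells (95% interval of the share 43.4% to 56.6%), in 38.7% of matched Pdcd1− cells and in 90.8% of Foxp3+ cells. The Foxp3+ cells were not depth matched, with a median of 3207 UMIs against 2709.5 in Pdcd1+ Tconv cells, which raises their share.

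The comparison was therefore run again among cells with neither Il2ra nor Ikzf2, 118 Pdcd1+ and 354 matched Pdcd1− Tconv cells. The log2 ratio of the summed inhibitory receptors was 0.06 (−0.12 to 0.25) there and 0.37 (0.27 to 0.47) in all the cells, and that of the summed Treg genes, a list that holds both genes, was 0.14 (0.01 to 0.27) and 0.40 (0.33 to 0.46). In these cells 7.47% of 3373 genes were past 1.5-fold higher and 6.37% lower. Tigit was still 2.22-fold higher (1.65 to 2.98), Cd81 3.37-fold (1.95 to 5.87), Tnfsf11 2.65-fold (1.65 to 4.24) and Ramp3 2.20-fold (1.66 to 2.90). Lag3 and Ctla4 had log2 ratios of −0.03 (−0.86 to 0.74) and −0.36 (−0.75 to 0.01) there. Havcr2, with 3 and 11 UMIs, was below the 50 UMIs required. The summed naive genes stayed lower, at −0.43 (−0.54 to −0.33). Among the cells that held Il2ra or Ikzf2, 118 Pdcd1+ and 216 Pdcd1−, a comparison chosen after seeing the data, the sums were 0.25 (0.13 to 0.37) for inhibitory receptors and −0.30 (−0.43 to −0.18) for naive genes.

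A demand for at least 2 Cd4 UMIs, which left 99 Pdcd1+ and 147 matched Pdcd1− cells, turned the sign of both sums. Inhibitory receptors were then at −0.18 (−0.35 to −0.01) and Treg genes at −0.17 (−0.28 to −0.06). Lag3 was at 0.539 (0.352 to 0.807) and Ctla4 at 0.621 (0.480 to 0.799), both lower in Pdcd1+ cells. Exhaustion regulators went from 0.12 to −0.019. Naive genes stayed lower at −0.54 (−0.67 to −0.41), Tnfsf11 stayed higher at 4.33-fold (2.32 to 8.58), as did Cd81 at 3.32-fold, Serpinb6b at 2.96-fold and Ccr8 at 1.997-fold. The direction given above for inhibitory receptors and Treg genes as sums thus depended on how strictly Cd4 was read. The cause was not tested. These sums are not independent, since Ctla4 is in both lists. In all Pdcd1+ Tconv cells Ctla4 made up 461 of the 1644 CPM of the inhibitory receptors. Lag3 is not in the Treg list, and Ikzf2, Tnfrsf18 and Tnfrsf9 of that list also turned lower. Whether the sums would turn without Ctla4 was not tested.

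**Figure D2:**
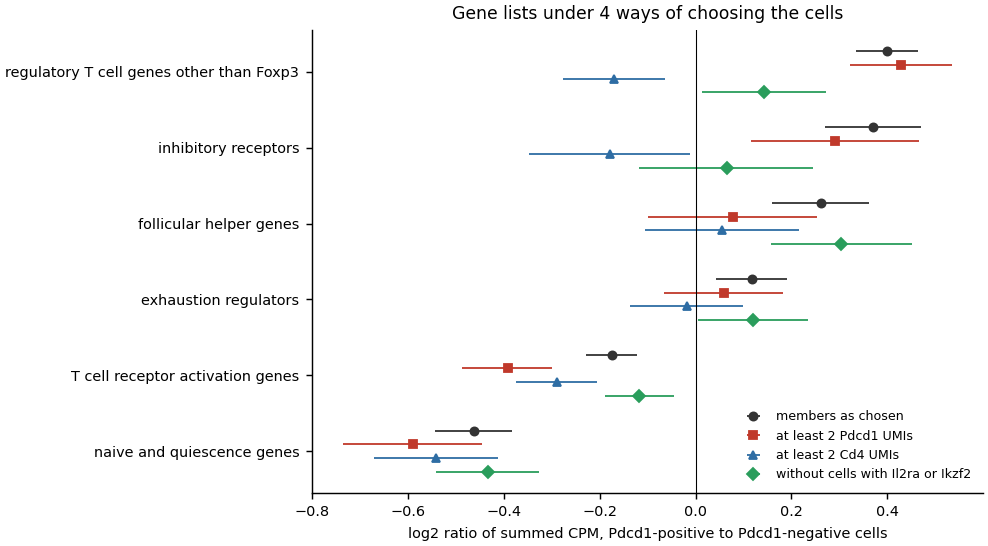
The x axis is the log2 ratio of summed CPM of 6 gene lists between Pdcd1+ and depth-matched Pdcd1− Tconv cells; markers stand for 4 ways of choosing the cells and bars for 95% intervals from the counts. Naive and receptor activation genes lie left of 0 in all 4. Inhibitory receptors and Treg genes, which share Ctla4, lie right of 0 in 3 and left of 0 with at least 2 Cd4 UMIs.

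Further lists held few genes past 1.5-fold. Of all 5163 genes, 5.42% were past it higher and 4.94% lower. Anergy genes had 2 of 13 higher, Lag3 and Nt5e, which encodes CD73, at 1.95 (1.30 to 2.92), and 1 lower, Dtx1 at 0.568 (0.299 to 1.01). Cytokine genes had 2 of 12 higher, Tnfsf11 and Tnfsf8, and none lower. Il2 was detected as 18 UMIs in 14 Pdcd1+ and 13 UMIs in 13 Pdcd1− cells, a ratio of 3.15 (1.46 to 6.98) below the 50 UMIs required. Type 1 helper genes had 1 of 16 higher, Gzmk, a granzyme, at 1.97 (1.30 to 2.98), and 3 lower, among them Ly6c2 at 0.614 and Fasl at 0.642. The Pdcd1+ cells were chosen without Ifng while some Pdcd1− cells had it, so that list is not free of the rule. With Pdcd1− cells also chosen without Ifng and Zbtb16, the summed inhibitory receptors were at 0.25 and the summed Treg genes at 0.18. Of 16 glycolysis and hypoxia genes the interval lay above 1 for 7 and below 1 for 1, against 400 and 270 of all 5163 genes. They were higher in sum, with a log2 ratio of 0.19 (0.14 to 0.24). That sum was 0.27 (0.20 to 0.35) with at least 2 Cd4 UMIs and 0.29 (0.22 to 0.36) without cells with Il2ra or Ikzf2. Among the cells that held Il2ra or Ikzf2 it was −0.014 (−0.080 to 0.052), so the rise was not seen there. The 1 gene past 1.5-fold, Slc2a1, the glucose transporter GLUT1, was lower at 0.568 (0.334 to 0.925).

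Counting cells instead of molecules gave the spread over cells. Each cell was thinned to 1500 UMIs, which left 194 Pdcd1+ and 445 Pdcd1− cells. Tnfrsf4 was found in 49.0% of Pdcd1+ and 25.8% of Pdcd1− cells, a difference of 23.1 percentage points (14.7 to 31.4), and before thinning in 60.2% and 42.3%. Tigit was found in 32.5% and 20.9% (53.0% and 33.8% before thinning), Ramp3 in 21.1% and 9.89% and Tnfsf11 in 10.3% and 5.39%. Ctla4 was found in 27.3% and 28.1%, a difference of −0.770 points (−8.34 to 7.22), and Cd40lg in 17.01% and 17.08%. Klf2 was found in 37.1% against 52.4%, Lef1 in 7.73% against 20.9% and Igfbp4 in 2.06% against 12.4%.

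**Figure D3:**
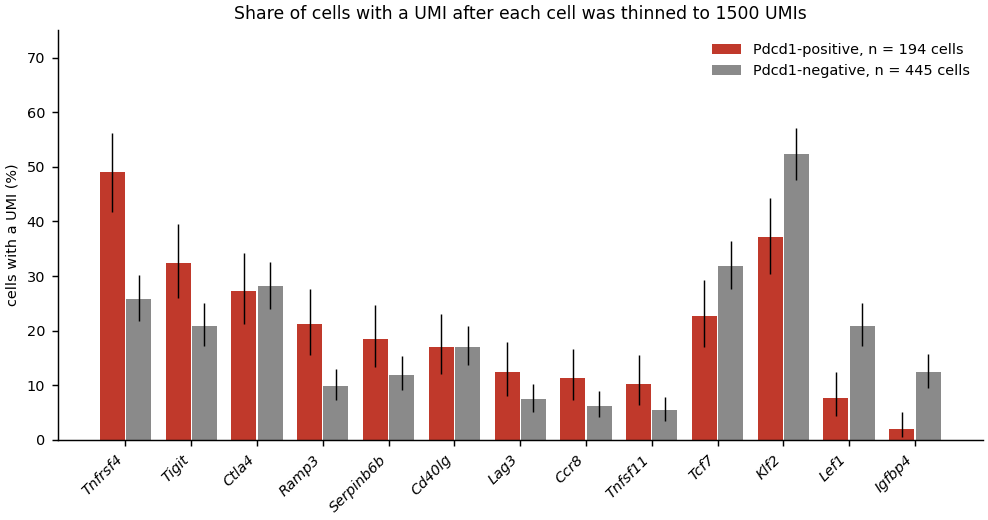
Percent of cells with a UMI of each gene after thinning to 1500 UMIs, for 194 Pdcd1+ (red) and 445 Pdcd1− Tconv cells (grey); bars are shares and lines their exact 95% binomial intervals. Tnfrsf4 shows the widest gap upward at 49.0% against 25.8%, and Klf2, Lef1 and Igfbp4 are below the grey bars.

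The Pdcd1+ Tconv cells were not alike among themselves. Tcf7 was detected in 82 of them (median 3413.5 UMIs) and not in 154 (median 2327.5 UMIs), so the split also separates deeper from shallower cells. Values are CPM, which scales the totals but does not undo this. The 2 groups were not depth matched, and cells whose Tcf7 transcript was missed count as without it. Cells with Tcf7 had Treg genes at 2218 CPM in sum against 5315 in those without, a ratio of 0.417 (0.384 to 0.453). Inhibitory receptors were at 0.553 (0.489 to 0.623) and costimulatory receptors at 0.546 (0.503 to 0.593). Lag3 was at 49.6 CPM against 245, Il2ra at 40.9 against 171 and Tnfrsf9 at 184 against 727. Ccr7 was at 134 CPM against 36.9 (3.64-fold, 2.02 to 6.88), and Slamf6, a receptor of less differentiated T cells, at 184 against 64.6 (2.85-fold, 1.80 to 4.61). Cd40lg and Tnfsf11 stood at ratios of 1.07 (0.738 to 1.56) and 0.933 (0.567 to 1.52), so these ligands were found on both sides of the split.

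A split by Ctla4, 109 cells with it and 127 without, ran the other way. Cells with Ctla4 had Treg genes at 2.02 times the level of those without (1.87 to 2.19), costimulatory receptors at 1.80 and inhibitory receptors at 1.55 (1.35 to 1.77), all counted without Ctla4, and naive genes at 0.813 (0.737 to 0.897). Havcr2 had 27 UMIs in 21 cells with Ctla4 and 2 UMIs in 2 cells without. Izumo1r, which encodes the folate receptor 4 of Treg and anergic cells, was at 284 CPM against 71.9 (3.95-fold, 2.60 to 6.19), and Cd40lg was at 0.655 (0.444 to 0.957). The amount of Pdcd1 itself went with other lists. Between 72 cells with 2 or more Pdcd1 UMIs and 164 with 1, Treg genes were at 1.02 (0.943 to 1.10), inhibitory receptors at 0.829 (0.733 to 0.936), naive genes at 0.790 (0.709 to 0.880), receptor activation genes at 0.805 (0.752 to 0.862) and glycolysis genes at 1.20 (1.13 to 1.27). CD8 T cell and NK receptor genes were at 0.319 (0.191 to 0.509), at 80.5 against 252 CPM. Myeloid genes were at 733 CPM against 359 in that split, and their part in it was not tested. That level rested on few cells. In the 72 cells, 20 of 30 Tyrobp UMIs, 28 of 44 Lyz2 UMIs and 21 of 36 Fcer1g UMIs each lay in 1 cell.

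**Figure D4:**
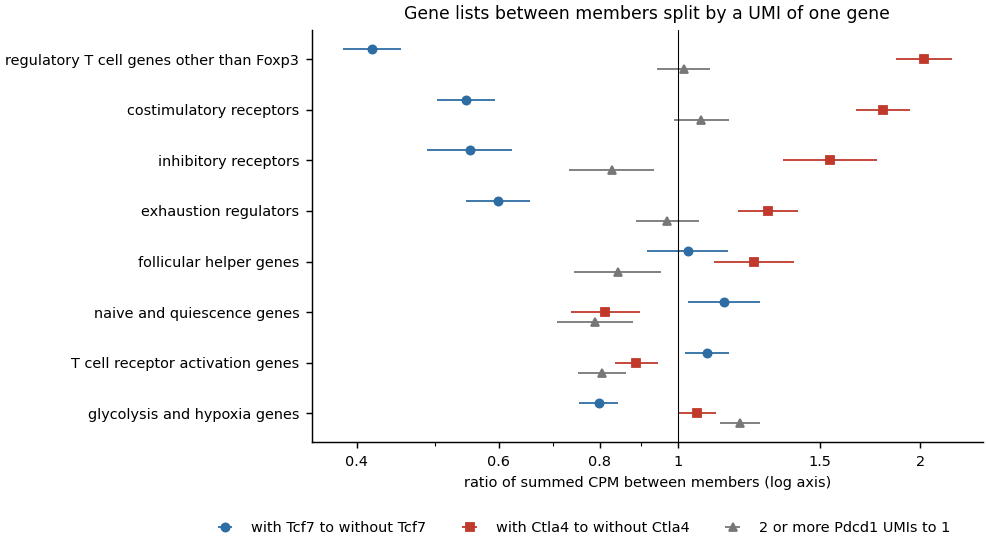
The x axis (log) is the ratio of summed CPM of 8 gene lists between Pdcd1+ Tconv cells with and without a UMI of Tcf7 (82 and 154 cells, circles) or Ctla4 (109 and 127, squares), and between cells with 2 or more Pdcd1 UMIs and 1 (72 and 164, triangles), with 95% intervals from the counts. Treg genes and inhibitory receptors are left of 1 for Tcf7 and right of 1 for Ctla4.

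The same genes were seen together in single cells at the common depth. Of 22 Pdcd1+ cells with Il2ra after thinning, 19 held Tnfrsf4, 16 held Tigit, 14 held Ikzf2 and 0 held Cd40lg. Of the 172 without Il2ra, 76 held Tnfrsf4, 47 held Tigit, 44 held Ikzf2 and 33 held Cd40lg. Of 58 with Ikzf2, 3 held Cd40lg and 2 held Tnfsf11, against 30 and 18 of the 136 without. Of 24 with Lag3, 20 held Tnfrsf4 and 14 held Tigit, against 75 and 49 of the 170 without. These pairs were picked after their values were seen and are given as a description.

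For reference, the same contrast was made in other lineages, without the conditions on Ifng and Zbtb16. Among Foxp3+ cells, 239 with Pdcd1 and 486 matched without, the summed inhibitory receptors had a log2 ratio of 0.04 (−0.02 to 0.11) and naive genes −0.20 (−0.28 to −0.12). Among CD8+ cells, 315 with Pdcd1 and 95 matched without, they were at 0.62 (0.46 to 0.79) and −0.75 (−0.87 to −0.64). Tnfsf11 was 2.91-fold higher in Pdcd1+ Tconv cells, whereas in Foxp3+ cells it had 10 and 17 UMIs (1.20-fold, 0.490 to 2.77) and in CD8+ cells 8 and 3. Tnfrsf4 was at 1.64 in Tconv cells, 1.03 (0.964 to 1.09) in Foxp3+ cells and 1.35 (0.969 to 1.92) in CD8+ cells. The differences between lineages were not tested.

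TCR sequences placed 183 of the 236 cells (77.5%) in 180 clones, a clone being a clonotype as called by Cell Ranger. Of these, 23 cells (12.6%, 8.14 to 18.3) belonged to clones with at least 2 cells in the library, against 34 of 368 (9.24%) matched Pdcd1− cells, a difference of 3.33 percentage points (−2.28 to 9.65). The share was 7.45% in Foxp3+ cells with Pdcd1 and 35.8% in CD8+ cells with Pdcd1. Clones that were expanded and held a Pdcd1+ Tconv cell numbered 20, and 7 of them also held Pdcd1− Tconv cells, 3 held Foxp3+ cells and 2 held CD8+ cells. Cells outside these classes were in 12 of the 20 clones. With clones defined by the beta chain alone, 25.6% of the Pdcd1+ cells (19.2 to 32.8) were in expanded clones. The share of Pdcd1− cells by that definition was not computed, so 25.6% cannot be set against the 9.24% above.

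The receptors below are the CDR3 segments, the hypervariable loop that contacts antigen, of the 3 clones with the most Pdcd1+ Tconv cells, 2 each, and of the largest clone that held any. They are shown as DNA of the assembled contigs, 5′ to 3′ and in lower case throughout.
TRAV7-4 to TRAJ37, alpha chain of a clone with 3 cells: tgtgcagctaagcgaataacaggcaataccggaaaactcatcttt
TRBV2 to TRBJ1-1, beta chain of the same clone: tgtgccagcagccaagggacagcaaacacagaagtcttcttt
TRBV26 to TRBJ2-2, a clone with 2 cells: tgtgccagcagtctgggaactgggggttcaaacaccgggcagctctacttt
TRBV1 to TRBJ1-1, a clone with 2 cells: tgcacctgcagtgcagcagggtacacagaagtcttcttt
TRAV7-6 to TRAJ52, alpha chain of the largest clone: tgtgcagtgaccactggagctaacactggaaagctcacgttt
TRBV13-1 to TRBJ1-1, beta chain of the largest clone: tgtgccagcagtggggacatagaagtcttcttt
The clones with TRBV26 and TRBV1 were called on a beta chain alone and that with TRAV4-3, given last, on an alpha chain alone, which is weaker evidence of shared descent than a pair of chains. The largest clone held 8 cells, of which 1 was a Pdcd1+ Tconv cell, 3 Pdcd1− Tconv cells, 1 Foxp3+, 1 CD8+ and 2 outside these classes. Another 2 clones, of 2 cells each, paired a Pdcd1+ Tconv cell with a Foxp3+ cell, and their sequences are given for that reason.
TRAV6-7-DV9 to TRAJ37, alpha chain of the former: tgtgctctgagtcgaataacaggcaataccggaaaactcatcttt
TRBV3 to TRBJ2-5, beta chain of the former: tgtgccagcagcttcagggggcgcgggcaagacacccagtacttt
TRAV4-3 to TRAJ31, the alpha chain of the latter: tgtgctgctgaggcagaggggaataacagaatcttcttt

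Among beta chain segments, TRBV20 was used by 25 of 172 Pdcd1+ cells (14.5%) and 27 of 337 matched Pdcd1− cells (8.01%), a difference of 6.52 points (0.539 to 13.2). TRBV1 was used by 10.5% and 5.34%, a difference of 5.12 points (0.0261 to 11.1). TRBV12-2 with TRBV13-2 was used by 6.98% and 13.4%, a difference of −6.38 points (−11.7 to −0.393). These 3 were picked after their values were seen from 16 beta segments with at least 10 cells in both groups together, and the intervals are not corrected for that choice. The invariant TRAV11 to TRAJ18 chain of NKT cells was found in 1 of 183 Pdcd1+ cells and 9 of 368 matched Pdcd1− cells. At least 2 productive beta chains, a sign of 2 cells in 1 droplet, were found in 16 of 172 Pdcd1+ cells (9.30%) and 11.6% of Pdcd1− cells.

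The tumor of origin could be read for few cells, since the 236 cells together held 26 tag UMIs. All 24 Pdcd1+ Tconv cells with tags of 1 tumor came from B16, out of 164 Tconv cells tagged B16 (14.6%, 9.61 to 20.99). None came from B16–IL-33, out of 17 Tconv cells so tagged, which allows a share of up to 17.6%. At this depth no difference between the tumors could be shown, since its interval ran from −20.99 to 5.51 percentage points around −14.6. Within B16 the tags did not give the same share, with 4 of 73 cells (5.48%) by the tag numbered 1 and 20 of 95 (21.1%) by the tag numbered 2.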

How the data were processed

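T cells of 1 pool were analysed by droplet sequencing. The authors deposited raw counts of UMIs per gene and barcode from a combined human and mouse (mm10) reference, raw counts of UMIs per hashtag, and counts of UMIs per TCR contig with Cell Ranger clonotypes, all without normalization. The matrix header names Cell Ranger 3.1.0 and the submitters' processing notes name 6.1.1. The library held 43420305 mouse UMIs, 26606999 of them in the cells kept. Of its barcodes, 11756 were in the hashtag library and 6665 in the TCR table.

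Cells were kept by the limits of the paper's methods. The Pdcd1+ cells, gene lists and splits were chosen with earlier results of these data known. Pdcd1− Tconv cells were drawn with a fixed seed within deciles of the UMIs of Pdcd1+ cells, 2.33 for each. UMIs were summed and given as CPM. Intervals at 95% are exact (Poisson for levels, conditional binomial for ratios, Clopper-Pearson for shares), and those of a difference of shares combine the Clopper-Pearson bounds of both shares. They cover counting error only, and PCR or capture differences are not in them. Since cells of 1 pool are not replicates, no p-value is given. Outside the lists, genes were named if their ratio was among the top 10 or bottom 10 and they had 100 UMIs or more, leaving out genes of the rule, TCR segments, mitochondrial genes and genes without their own symbol. The upper limit given beside a share of 0 is 3 counts. Cells whose tag UMIs (1 or more) all belonged to 1 tumor were assigned to it. No doublet caller was run, and an alternative leaves out cells with at least 2 productive beta chains. Coordinates of 311 of 311 genes looked up came from GENCODE vM21 (GRCm38). Some genes of the lists are not reported here. The ratio and its interval were tested on simulated counts, drawn independently from the Poisson model that the interval rests on. UMIs gathered in single cells, as for Penk and Gzmc, were not simulated. The coverage of the intervals for such genes was not tested. The work used Python 3.11.15, NumPy 2.4.6, SciPy 1.17.1 and pandas 2.3.3.

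Alternatives changed the limits on cells, the UMIs of Pdcd1 or Cd4 required, the conditions on Ifng and Zbtb16, the matching, the average, doublets, cells with other markers or with Il2ra or Ikzf2, the count minimum, the definition of a clone, the tags and the thinning depth.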

Additional observations from a re-analysis of the deposited data

Results flagged for a closer look

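Gzmc stood at a ratio of 2.19 between Pdcd1+ and Pdcd1− Tconv cells and at 0.214 in the same contrast among Foxp3+ cells (6 and 57 UMIs), with 36 of 56 UMIs of the Pdcd1+ Tconv cells in 1 cell. Ly6c2, a surface protein of memory and effector T cells, stood at 0.614 among Tconv cells and at 1.93 among Foxp3+ cells (71 and 75 UMIs). Both were picked out because the direction differed between the lineages, and neither difference was tested, since the pool is 1 sample.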

How the results depend on the processing

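Of 136 alternative values of the main results, 91 stayed within the interval or count range of the reported value, 42 moved and 3 turned. Counts of genes past 1.5-fold were compared without regard to the number of genes tested, which differed between alternatives. Of 576 for single genes, 463 stayed, 93 moved and 20 turned. With at least 2 Cd4 UMIs there were 99 Pdcd1+ cells (15.9%), and 118 genes were higher and 168 lower of 2410 tested. The log2 ratios were then −0.18 for inhibitory receptors, −0.019 for exhaustion regulators and −0.17 for Treg genes. They were 0.056 for follicular helper genes and −0.29 for receptor activation genes. Single genes turned there to −0.69 (Ctla4), −0.96 (Havcr2), −0.12 (Ikzf2), 0.34 (Irf4), −0.89 (Lag3), −0.11 (Tnfrsf18) and −0.23 (Tnfrsf9). With at least 2 Pdcd1 UMIs there were 72 cells (4.07%), with 0.078 for follicular helper, −0.59 for naive and −0.39 for receptor activation genes, 19.3% in expanded clones, and Cd96 at 0.72, Ctla4 at −0.15, Gzmc at −1.62 and Lag3 at −0.23. Without cells with Il2ra or Ikzf2 there were 118 (11.01%), with 0.065 for inhibitory receptors, 0.14 for Treg and −0.12 for receptor activation genes, 18.4% in expanded clones, and Ctla4 at −0.36, Havcr2 at −0.32 and Lag3 at −0.031. With Ifng and Zbtb16 allowed, the share was 15.9% and Treg genes stood at 0.26. With both also barred in Pdcd1− cells, inhibitory receptors stood at 0.25, Treg genes at 0.18, receptor activation genes at −0.041 and Hbb-bs at 0.69. Without depth matching, 441 genes were higher and 532 lower of 6999 tested, with naive genes at −0.60 and Treg genes at 0.27. By the mean CPM of each cell, 463 genes of 5163 tested were higher, Treg genes stood at 0.47 and Penk at −0.37. Without cells with at least 2 beta chains, naive genes stood at −0.38, Treg genes at 0.33 and receptor activation genes at −0.026. Without cells with markers of other types, Treg genes stood at 0.32, receptor activation genes at −0.10, C1qb at 0.83, Ccl2 at 0.41, Gzmc at −1.45 and Penk at −2.05. Another draw gave 0.30 for Treg genes. A minimum of 20 UMIs gave 730 genes higher and 669 lower, of 7701 tested, and one of 200 gave 26 and 25 of 1608. Clones by beta chain put 25.6% of cells in expanded clones and clones of at least 3 cells 5.46%. Tags numbered 2 alone gave a tumor difference of −21.1 points. Other causes were not tested.

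Over their alternatives, Tnfsf11 kept its direction (log2 0.94 to 2.11), as did Ccr8 (1.00 to 1.29), Tigit (0.37 to 1.15), Igfbp4 (−3.40 to −2.53) and Lef1 (−1.85 to −0.91). No paired analysis was possible because the pool is 1 sample, and no replicate could be left out. Genes under 50 UMIs, Cxcr5, Bcl6 and Il21 among them, and the tumor of origin could not be compared at this depth.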
